A study of Rattus norvegicus with 12 samples.

Results

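The athymic nude (AN, Hsd:RH-rnu/rnu) spinal cord was followed from the acute phase, 1 week after contusion, to the chronic phase, 8 weeks after contusion. AN rats carry the rnu mutation on both alleles, form no functional thymus and hold few mature T cells. The AN rats sequenced were 6 of the 12 rats of the series, 3 at each time, and the other 6 were Sprague-Dawley (SD, Hsd:SD) rats with an intact immune system. All were adult females, 16 to 18 weeks old at injury, impacted on the exposed thoracic cord with a force of 200 kdyn, and the lesion itself was taken as a segment of 1 mm for polyadenylated RNA after perfusion with saline. Different rats were used at 1 and at 8 weeks, and no uninjured cord was part of the series, so neither time has an intact baseline.

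The deposited tables give 1 FPKM (a read count corrected for exon length and for sequencing depth) per gene for each group of 3 rats. The spread between rats is therefore unknown, no test of the time course could be made, and every difference below is a description of pooled values with no replicate check. Of the 17423 genes listed, 10479 were compared, which had the status OK in the tables of both phases and an FPKM of at least 1 in AN rats at both times. A further 476 genes with the status OK were under that minimum at 1 week only, 163 at 8 weeks only and 569 at both times. Close to the limit, 86 genes had a lower AN FPKM between 1 and 1.1 and were kept, and 100 between 0.9 and 1 were left out. Because the phases were normalized apart, the log2 ratio of the 8 week to the 1 week FPKM was centred on its median, which was 0.01. Folds are given after this centring, and 2-fold is a limit of size, not of significance.

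A contused cord is first cleared and walled off and later settles. Blood-borne macrophages and microglia take up myelin and red cell debris, fibroblasts and glia divide and lay down matrix, and afterwards myelin is restored in part by oligodendrocytes and by Schwann cells that enter from the roots. The segment is a mixture of these cells, so fewer cells of a type and less RNA per cell cannot be told apart in any value below.

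Of the 10479 genes compared in AN rats, 987 (9.42%) were at least 2-fold higher at 8 weeks and 570 (5.44%) at least 2-fold lower. The median absolute centred log2 ratio was 0.35, and the central 90% of genes lay between -1.04 and 1.37. The lowest genes passed the limit most often. At a mean FPKM (geometric, over both times) from 1 to 5, 18.7% were higher and 7.72% lower, against 5.99% and 4.14% at a mean from 20 to 100 and 7.31% and 6.71% at 100 and over.

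Gene symbols need a caution that touches each list below. The tables name genes by RGD (Rat Genome Database) identifier, and 3383 of the compared genes could be paired with a symbol. Of these, 1181 were named from the study's own list of genes that differed between the strains at 1 week, and 2202 from the RefSeq gene table. The first set was thus chosen partly on the AN value at 1 week, and it moved more with time: 37.3% of its genes were at least 2-fold higher and 16.6% at least 2-fold lower at 8 weeks, with a median of 0.68. Among genes named from the gene table the shares were 6.95% and 4.09%, and among the 7096 genes without a symbol 5.55% and 4%. Gene lists were drawn from general knowledge with earlier results of these data known, and 420 of their 1245 symbols were among the compared genes, 381 of these through the study's list. Of the 59 cell type markers chosen, 31 had a symbol match, and none of those of endothelium or mast cells did. Counts over a list are therefore read against 37.3% and 16.6%, not against the shares of all genes. These 2 shares pool genes above and below SD rats at 1 week, whereas many lists lean to 1 side. At 1 week 34 of 35 cell cycle genes were above the SD level, and all 40 neuron genes were below it. Genes picked for a low value at 1 week are more likely to be higher later, and the reverse. For such lists the 2 shares are only a rough guide. Genes named from the gene table are marked as such where their values are given.

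**Figure D1:**
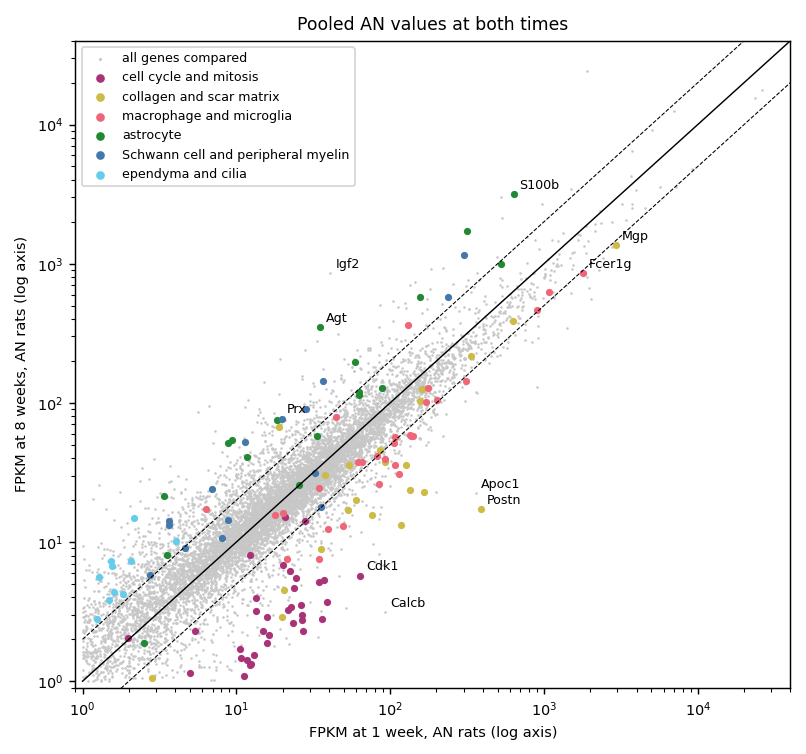
Pooled FPKM of each compared gene in AN rats at 1 week (horizontal, log axis) and at 8 weeks (vertical, log axis), with members of 6 gene lists in colour, the solid line at equal values and dashed lines at 2-fold. Of the 35 cell cycle genes 31 lie under the lower dashed line, with FPKM of all 35 between 1.09 and 15.2 at 8 weeks, and astrocyte, Schwann cell and cilia genes lie mostly above the line of equal values.

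Genes of cell division were the list with the lowest median. Of the 35 cell cycle and mitosis genes compared, 31 were at least 2-fold lower at 8 weeks and 0 higher, with a median centred log2 ratio of -2.74. Cdk1, the kinase that starts mitosis, had an FPKM of 64.1 at 1 week and 5.74 at 8 weeks, which is 11.3-fold lower. Its partner cyclins were lower by about as much, Ccnb1 from 38.7 to 3.74 (10.5-fold) and Ccna2 from 27 to 2.31 (11.8-fold). Ube2c, the ubiquitin-conjugating enzyme that works with the anaphase-promoting complex, had 36.1 at 1 week and 2.8 at 8 weeks (13-fold lower). Each of these genes was above the FPKM minimum at 8 weeks, which the comparison requires. Members named from the gene table, 6 in number, had a median of -2.39, with 5 of them at least 2-fold lower. The exception among these was Anln, which has a role in cytokinesis and is also made by myelinating oligodendrocytes, with 1.98 at 1 week and 2.04 at 8 weeks. The 8 members left out by the FPKM minimum had all passed it at 1 week, among them Kif2c with 10.3 and 0.887 and Melk with 7.75 and 0.645 at 1 and 8 weeks, and these are singled out after their values were seen.

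Promoters of these genes are shown because members that are lower together can be compared with what lies before their start sites. The cell cycle homology region (TTTGAA) and the CCAAT box (CCAAT) are elements known from promoters of mitotic genes. RefSeq windows of 250 bases before to 50 bases after the start (GRCr8) could be matched for 27 of the compared members. TTTGAA, read on both strands, was in 22 of these (81.5%) and in 18.1% of all 27457 windows. Among the 22 were Anln, which was level, and Ccnf, which was 1.55-fold lower, so the letters were not confined to members past 2-fold. CCAAT was in 16 of the 27 (59.3%) and in 37.7% of all windows. A match is a run of letters and was not tested as a binding site. The 200 bases before the start of 3 genes that were 6.97-fold (Cdc20), 10.5-fold (Ccnb1) and 11.3-fold (Cdk1) lower at 8 weeks, chosen after these values were seen, are given 5′ to 3′ along the gene, with both elements in capitals (ATTGG is CCAAT and TTCAAA is TTTGAA on the other strand).
Cdk1, chr20:19265093-19265292, strand +: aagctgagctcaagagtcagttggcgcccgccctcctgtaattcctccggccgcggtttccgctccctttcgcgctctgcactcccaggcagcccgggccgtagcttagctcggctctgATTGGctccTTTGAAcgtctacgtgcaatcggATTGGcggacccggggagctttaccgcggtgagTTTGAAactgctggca
Ccnb1, chr2:33655226-33655425, strand -: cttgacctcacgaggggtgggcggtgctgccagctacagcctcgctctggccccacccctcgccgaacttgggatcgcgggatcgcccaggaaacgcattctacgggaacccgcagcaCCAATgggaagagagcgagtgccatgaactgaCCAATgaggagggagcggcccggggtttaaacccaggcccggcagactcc
Cdc20, chr5:137255800-137255999, strand -: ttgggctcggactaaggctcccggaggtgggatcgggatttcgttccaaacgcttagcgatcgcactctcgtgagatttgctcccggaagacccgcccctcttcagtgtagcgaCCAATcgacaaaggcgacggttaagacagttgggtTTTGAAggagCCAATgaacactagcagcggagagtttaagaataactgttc
Cdk1 held 2 runs of TTTGAA and 2 of CCAAT in this stretch, Cdc20 (the activator of the anaphase-promoting complex) 1 and 2, and Ccnb1 0 and 2.

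Genes of DNA replication were also lower at 8 weeks. Of 9 compared, 8 were at least 2-fold lower and 0 higher, with a median of -1.5. The helicase subunits Mcm5 (26.2 and 4.9), Mcm6 (35.5 and 9.81) and Mcm2 (25.4 and 10.6 at 1 and 8 weeks) were 5.4-fold, 3.65-fold and 2.42-fold lower. Of the 3 members named from the gene table, 2 were at least 2-fold lower, among them Gins1, part of the replicative helicase (4.53-fold). Gins2, of the same complex and also named from the gene table, was level, with 8.35 at 1 week and 8.84 at 8 weeks. The E2F letters TTTCGCG were in 5 of the 7 windows matched for this list and in 0.867% of all windows, and the variant TTTGGCG was in 3 of 7 and in 1.54% of all. Both were read on both strands, and Mcm5 and Mcm6 held both.

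Macrophage and microglia genes were for the most part lower at 8 weeks, from high levels. Of 29 compared, 15 were at least 2-fold lower and 2 at least 2-fold higher, with a median of -1.0. Fcer1g, the signalling chain shared by Fc receptors, had 1791 at 1 week and 854 at 8 weeks (2.12-fold lower), and Cyba, a subunit of the phagocyte oxidase, had 1079.9 at 1 week and 627 at 8 weeks, a fold of 1.74. The largest differences were in Cd93 (34.4 and 7.52), the oxidase subunit Ncf4 (49.5 and 13.1), the high-affinity IgG receptor Fcgr1a (115 and 30.6) and the sialic acid receptor Siglec1 (85 and 26.3 at 1 and 8 weeks), which were 3.26-fold to 4.62-fold lower. The defining markers named here moved unevenly. Cd14, the lipopolysaccharide co-receptor, was 3.03-fold lower (108 and 36), Itgam, the integrin CD11b, 2.37-fold (137 and 58.3) and the fractalkine receptor Cx3cr1 2.3-fold (134 and 58.8). Mrc1, the mannose receptor, had 82.3 and 41.5 at 1 and 8 weeks, which only just passed the 2-fold limit, and the hemoglobin scavenger receptor Cd163 had 20.1 and 16.2. Members named from the gene table, 3 in number, had a median of -0.5 and 0 past 2-fold. The PU.1 letters GAGGAAGT were in 1 of 13 windows matched, against 2.44% of all.

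Genes of lipid uptake and efflux, a task of phagocytes at a lesion, were lower at 8 weeks. Each of the 8 lipid genes compared was lower at 8 weeks, 5 of them by at least 2-fold, with a median of -1.19. Apoc1, an apolipoprotein secreted by macrophages, had 359 at 1 week and 22.4 at 8 weeks (16.2-fold lower), and Angptl4, an inhibitor of lipoprotein lipase, had 77 at 1 week and 9.66 at 8 weeks (8.05-fold lower). Lipoprotein lipase itself (Lpl), the oxidized LDL receptor Olr1 and the fatty acid binding protein Fabp4 were 2.92-fold, 2.35-fold and 2.22-fold lower. Of 10 lysosome and phagocyte cargo genes 2 (20%) were at least 2-fold lower, a share near the 16.6% of genes named from the study's list, and 3 were above 0, with a median of -0.58. The thiol reductase Ifi30 had the largest difference of these (829.8 at 1 week and 273 at 8 weeks). Of the 8 hemoglobin and heme clearance genes 3 (37.5%) were at least 2-fold higher, near the 37.3% of genes named from the study's list. Another 3 (37.5%) were at least 2-fold lower, against 16.6%, and the median of the list was -0.04. Hmox1, which opens the heme ring, had 907 at 1 week and 129 at 8 weeks (7.1-fold lower), and the transferrin receptor Tfrc (87.7 and 17.8) and the hemoglobin-binding plasma protein Hp (23.9 and 5.38) were 4.97-fold and 4.49-fold lower, whereas Sptb, a spectrin chain of the red cell membrane, was 5.78-fold higher on low values (1.38 and 8.07). None of the 5 cholesterol synthesis genes compared passed 2-fold, and their median of 0.73 was near the 0.68 of genes named from the study's list, which names all of them, with the lathosterol enzyme Sc5d at 19 at 1 week and 37.7 at 8 weeks. The sterol element letters TCACNCCAC, where N is any base, were in 0 of 3 windows matched and in 1.13% of all.

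Scar matrix genes were lower in most cases. Of 22 collagen and scar matrix genes compared, 14 were at least 2-fold lower and 1 higher, with a median of -1.5, and all were named from the study's list. Postn (periostin, a matrix protein of activated fibroblasts and the marker of that cell type named here) had 392 at 1 week and 17.2 at 8 weeks, which is 23-fold lower. Lox, the enzyme that cross-links collagen, had 117 at 1 week and 13.4 at 8 weeks (8.85-fold lower), and the elastic fibre protein Fbln2 had 167 at 1 week and 23.1 at 8 weeks (7.32-fold lower). The most abundant members differed by less. Mgp, an inhibitor of calcification, had 2940.5 at 1 week and 1354 at 8 weeks, and the collagen chaperone Serpinh1 had 627 at 1 week and 391 at 8 weeks. The single member at least 2-fold higher was Fmod (fibromodulin, which regulates collagen fibril assembly), with 19 at 1 week and 66.9 at 8 weeks, named here after its value was seen.

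Among extracellular proteases and their inhibitors 4 of 10 were at least 2-fold lower and 0 higher. The sheddase Adam8 (79.3 and 7.24 at 1 and 8 weeks, named from the gene table) was 11.1-fold lower. Plau, the urokinase that activates plasminogen, had 108 and 31.2 and was 3.5-fold lower. Mmp12, the macrophage elastase, was nearly level at 96 and 76.5, while in SD rats it had 53.1 and 11.3. Klk6, a protease of oligodendrocytes, had 174 at 1 week and 343 at 8 weeks.

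Signalling and immune lists were mixed. Of 22 cytokine and chemokine genes, 8 (36.4%) were at least 2-fold lower and 4 (18.2%) higher, with a median of -0.89. Among genes named from the study's list these shares were 16.6% and 37.3%. Il33, an alarmin held in glial nuclei, had 219.7 at 1 week and 57.8 at 8 weeks (3.84-fold lower, named from the gene table). The receptor chains Csf2rb and Il4r were 3.5-fold and 3.02-fold lower, and the platelet and macrophage chemokine Pf4 stayed abundant at 832 and 569. The chemokine Cxcl14 was higher by 5.12-fold (104 at 1 week and 537 at 8 weeks). Of 7 complement genes 3 (42.9%) were at least 2-fold lower and 3 (42.9%) higher, the latter share near the 37.3%. C1qc, a chain of the recognition protein C1q, was 2.94-fold lower (1956 and 671) and properdin (Cfp) 4.01-fold lower, whereas factor B (Cfb) was 3.08-fold higher and clusterin (Clu), an inhibitor of the terminal complex that astrocytes secrete, 5.68-fold higher (524 and 3007). The interferon response list had a median of -0.05 over 20 genes, 1 higher (Ifi27l2b, 56.3 and 181) and 1 lower (Ddx60, named from the gene table, 11.9 and 3.54), and its 5 genes named from the gene table had a median of -0.08. Of 6 antigen presentation genes, with a median of -0.1, 1 was at least 2-fold higher, the class II invariant chain Cd74 (88.8 at 1 week and 260.1 at 8 weeks), and 1 at least 2-fold lower, the thiol reductase Ifi30 given above. RT1-N1 was listed at 0 at both times.

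Few lymphocyte markers could be followed. Of the T cell list 4 genes were compared, with 2 at least 2-fold lower and 1 higher. Cd3g, the only chain of the CD3 complex with a symbol, had an FPKM of 0.531 at 1 week and 1.4 at 8 weeks and so fell outside the comparison. Cd8a, a coreceptor of cytotoxic T cells that rat macrophages and NK cells can also carry, had 199 at 1 week and 22.8 at 8 weeks (8.83-fold lower), and Cd4, which rat macrophages and microglia also carry, had 44.4 at 1 week and 79 at 8 weeks. The adaptor Lcp2, shared by T and myeloid cells, was 2.66-fold lower, and the thymocyte factor Tox had 1.28 and 2.73 at 1 and 8 weeks. Of the natural killer list only the receptor Klra5 was compared, with 28.3 at 1 week and 24.3 at 8 weeks. The B cell inhibitor receptor Cd22 had 3.52 and 1.59 and the B cell protein Fcrla, named from the gene table, 2.67 and 1.35. Both were at least 2-fold lower, on low values. Of neutrophil genes, the receptor Csf3r was 2.4-fold lower (30.8 and 12.9), and the amplifier receptor Trem1, singled out after its values were seen, had 32.9 at 1 week and 0.832 at 8 weeks and was left out for its second value. No mast cell gene of the list had a symbol match.

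**Figure D2:**
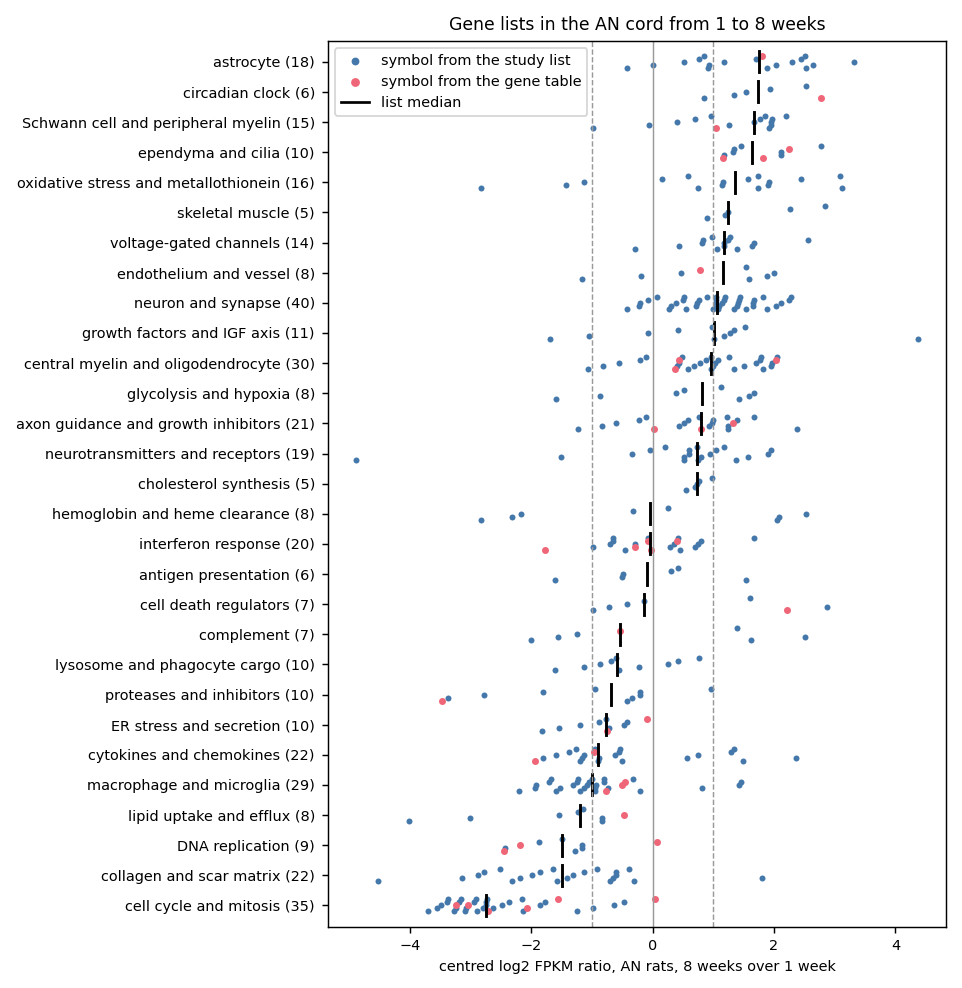
Centred log2 ratio of the FPKM at 8 weeks over 1 week in AN rats (horizontal) for the members of the 29 gene lists with at least 5 compared genes (number in brackets), with dashed lines at 2-fold, blue points for symbols from the study's list, red points for symbols from the gene table and black bars at the median. Medians run from -2.74 for cell cycle and mitosis to 1.75 for astrocyte genes.

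Astrocyte genes were the list with the highest median. Of 18 compared, 11 (61.1%) were at least 2-fold higher at 8 weeks and 0 lower, with a median of 1.75. All but 1 were named from the study's list. The AN level was below that of SD rats in 17 of the 18 at 1 week and in 16 at 8 weeks. S100b, a calcium-binding protein, had 635 at 1 week and 3159 at 8 weeks (4.92-fold higher) and the metallothionein Mt3 314 at 1 week and 1718 at 8 weeks (5.42-fold higher). Agt, the precursor of angiotensin, was 9.92-fold higher (35 and 351). Cbs, the enzyme that forms cystathionine, Acsl6, which activates long fatty acids for phospholipids, and the BMP family member Gdf10 were 5.76-fold, 5.7-fold and 6.21-fold higher. The glutamate transporter Slc1a2 had 18.4 at 1 week and 75.8 at 8 weeks (4.07-fold higher). The only member named from the gene table, Nkain4, lay close to the median of the list with 11.7 at 1 week and 41 at 8 weeks. Not every member moved, since Steap4 had 25.5 and 25.9 and Serpina3n, a marker of reactive astrocytes, 2.53 and 1.9.

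Genes of motile cilia, which ependymal cells of the central canal carry, were all higher. Each of the 10 compared was at least 2-fold higher at 8 weeks, with a median of 1.63, and the 3 named from the gene table had a median of 1.82. The dynein heavy chain Dnah12 had 2.16 at 1 week and 14.9 at 8 weeks (6.84-fold higher), and Drc3, of the regulatory complex that links axonemal dyneins and named from the gene table, 1.54 at 1 week and 7.34 at 8 weeks (4.73-fold higher). The dynein light chains Dynlrb2 and Dnali1 were 4.34-fold and 4.32-fold higher. Levels were low throughout, with 10.2 at 8 weeks for Lrrc23 of the radial spoke. A further 14 members were under the FPKM minimum at 1 week, such as the markers Dnah5 (0.265 and 0.871) and Hydin (0.126 and 0.667), so the members compared are those that were already above it.

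Peripheral myelin genes had a higher median than those of central myelin. In the Schwann cell list 10 of 15 were at least 2-fold higher and 0 lower, with a median of 1.66. Prx (periaxin, which links the Schwann cell to the matrix around it) had 19.7 at 1 week and 77 at 8 weeks (3.88-fold higher), and Pmp22, a membrane protein of compact peripheral myelin, had 239 and 579.7 (2.4-fold). The cadherin Cdh19 and the sodium channel family member Scn7a of non-myelinating Schwann cells were 3.88-fold and 4.56-fold higher. Pmp2, a fatty acid binding protein of the same myelin, was an exception at 32.4 and 31.4, and Ngfr, the neurotrophin receptor of immature and repair Schwann cells, had 35.3 at 1 week and 18 at 8 weeks. In AN rats 0 of the 15 genes were above the SD level at 1 week and 12 at 8 weeks. All but 1 of these symbols came from the study's list, which was chosen on a strain difference in either direction at 1 week.

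In the oligodendrocyte list 13 of 30 genes (43.3%) were at least 2-fold higher, a share near the 37.3% of genes named from the study's list, and 1 lower, with a median of 0.96. The markers fell on both sides of the limit. Mobp, a basic protein of compact myelin, had 53.2 at 1 week and 189 at 8 weeks (3.52-fold higher), and Mog, on the outer face of the sheath, 49.2 at 1 week and 141 at 8 weeks (2.83-fold). Mag, on the inner face of the sheath, had 202 and 404 (1.98-fold) and Cnp, an enzyme of uncompacted myelin, 517 and 702 (1.35-fold). The largest differences were in Plekhb1 (124 and 520.3), Ermn (ermin, of late oligodendrocytes, named from the gene table, 31.9 and 131), Mal (36.5 and 144), a lipid raft protein of both kinds of myelin that counts in both lists, and Folh1 (2.08 and 8.17). Of genes of the lineage, given for contrast after their values were seen, Gpr17, a receptor of premyelinating cells, had 42.2 and 24.3, Olig2 27.2 and 25.5 and Nkx6-2, a factor of maturing cells, 21.2 and 43.4. The 3 members named from the gene table had a median of 0.44.

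Neuronal genes were higher at 8 weeks but from a low level. Of 40 neuron and synapse genes compared, 24 were at least 2-fold higher and 0 lower, with a median of 1.06. All were named from the study's list, and each was below the SD level at 1 week, the time at which that list was chosen for a strain difference in either direction. The neurofilament chains Nefl (8.68 and 41.4) and Nefm (9.14 and 37.9) were 4.72-fold and 4.1-fold higher. Snap25, the SNARE protein of the presynaptic membrane, had 6.79 at 1 week and 24.1 at 8 weeks (3.52-fold) against 179 and 213 in SD rats, and the vesicle protein Syp had 6.48 at 1 week and 13.4 at 8 weeks against 78.5 and 92.9. Of vesicle release, Sv2b and complexin 1 (Cplx1) were 4.87-fold and 4.33-fold higher. The most abundant members were the secretory granule proteins Pcsk1n (88.8 and 185) and Resp18 (56.3 and 181). At 8 weeks the AN level of each of the 40 genes was still below that of SD rats.

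Voltage-gated channels of axons followed the same direction, with 9 of 14 (64.3%) at least 2-fold higher and a median of 1.18. All 14 were named from the study's list, and all were below the SD level at both times. A further 16 channel genes were under the FPKM minimum. The sodium channel subunit Scn4b (3.57 and 21.2) was 5.89-fold higher. Among potassium channels Kcna1 (5.64 and 18.1) and Kcna6 (8.54 and 22.5) were 3.18-fold and 2.61-fold higher, and the pacemaker channel Hcn2 had 21.4 and 42.8. Of 19 transmitter and receptor genes 6 (31.6%) were at least 2-fold higher and 2 (10.5%) lower, both under the 37.3% and 16.6% of genes named from the study's list. The GABA receptor subunits Gabra2, Gabrb1 and Gabbr1 were 3.88-fold, 3.75-fold and 2.05-fold higher. Gad1, the GABA-forming enzyme, was 2.86-fold lower (5.9 and 2.08), while in SD rats it had 10 and 14. Calcb, the beta form of the peptide CGRP, showed the largest difference among the compared genes with a symbol and an FPKM of at least 10 at either time, 92.6 at 1 week and 3.15 at 8 weeks, which is 29.7-fold lower. Of this list 23 members were under the FPKM minimum.

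Circadian clock genes were higher in AN rats at 8 weeks, with a median near 0 in SD rats. Of 6 compared, 5 were at least 2-fold higher, with a median of 1.73 in AN and -0.07 in SD rats. All 6 were below the SD level at 1 week, and all but Ciart were named from the study's list. Dbp, an output factor of the clock, had 26.6 at 1 week and 155 at 8 weeks (5.78-fold higher) in AN rats against 68 and 56 in SD rats. Ciart, a repressor in the same loop and named from the gene table, had 3.06 at 1 week and 21.1 at 8 weeks (6.85-fold higher) against 9.76 and 11.9. Per3 and Tef were 3.81-fold and 2.91-fold higher in AN rats. The hour of death is not among the labels, so the phase of day and the group cannot be told apart. The E-box CACGTG, to which the clock's activators bind, was in the windows of 2 of 6 members (Ciart and Tef) and in 6.65% of all windows. Ciart is shown because it had the largest difference of the list and held 3 E-boxes, in capitals, in the 200 bases before its start (GRCr8).
Ciart, chr2:186112247-186112446, strand -: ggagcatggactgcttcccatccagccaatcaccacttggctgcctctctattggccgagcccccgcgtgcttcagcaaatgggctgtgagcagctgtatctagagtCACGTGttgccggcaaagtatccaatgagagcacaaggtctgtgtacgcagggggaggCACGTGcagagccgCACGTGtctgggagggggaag

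Further lists covered vessels, muscle and metabolism. In vessels, Myh11 and Mylk of smooth muscle were 4.0-fold and 3.7-fold higher, from 5.14 to 20.7 and from 16.3 to 60.9, and the endothelial receptor Aplnr and adhesion molecule Vcam1 3.0-fold and 2.89-fold, with 4 of 8 higher and 1 lower. Muscle genes were low, with 5 of 20 found above the minimum and status limits, 4 of these at least 2-fold higher, and the defining marker Acta1 had 0.847 and 1.36. The highest of them, Pygm (glycogen phosphorylase, also an astrocyte enzyme), had 17.5 and 85.1. In the oxidative stress list 10 of 16 were at least 2-fold higher and 3 lower, Hmox1 among the lower. The glutathione transferases Gstm3 (11.8 and 104) and Gsta3 (28 and 240.4) were 8.74-fold and 8.51-fold higher.

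Of 8 glycolysis and hypoxia genes 4 were at least 2-fold higher and 1 lower. Hk3, the hexokinase of myeloid cells, was 3.02-fold lower (88.9 and 29.7), and Ldhb, the heart type lactate dehydrogenase, and Pfkm were 3.18-fold and 3.0-fold higher. ER genes were all lower to some degree, 3 of 10 by at least 2-fold, led by Ckap4 (81.2 and 23.2), Pdia5 (16.2 and 5.66) and Fkbp11 (50.1 and 22), and the 2 named from the gene table had a median of -0.43. Cell death regulators had a median of -0.14, with 4 of 7 below 0. At least 2-fold higher were 3 (42.9%, near the 37.3%), Cidea (7.0 and 51.8), a lipid droplet protein, the inhibitor of apoptosis Birc7 (1.75 and 8.24, named from the gene table) and the Fas inhibitor Faim2 (31.6 and 96.4), and 0 were at least 2-fold lower. Both cytosolic ribosomal proteins with a symbol were within 2-fold (Rps10 70.5 and 57.4, Rpl30 2.05 and 1.47).

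In the growth factor list 6 of 11 genes were at least 2-fold higher and 2 lower. The largest difference upward among the compared genes with a symbol and an FPKM of at least 10 at either time was Igf2, an insulin-like growth factor of meninges and vessels, with 40.6 at 1 week and 852 at 8 weeks (20.8-fold) against 119 and 409 in SD rats. The receptors Ntrk2 (for BDNF) and Fgfr2 were 2.87-fold and 2.52-fold higher, and Inhba, a chain of activin, was 3.25-fold lower. Of 21 axon guidance genes 7 (33.3%) were at least 2-fold higher, under the 37.3% of genes named from the study's list, and 1 lower. The ligands Efnb3 (4.39 and 23.1), which myelin carries, and Sema3b (31.6 and 102) were 5.2-fold and 3.18-fold higher, and the receptor Epha4, named from the gene table, 2.5-fold (2.62 and 6.62). The 3 members named from the gene table had a median of 0.8.

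The 10 largest differences upward, led by Igf2 and including Agt, held further genes outside the lists. Thrsp, a regulator of lipid synthesis, had 1.27 at 1 week and 25.7 at 8 weeks (20-fold higher), and Ppp1r1b (DARPP-32), a phosphatase inhibitor, 5.63 at 1 week and 86.6 at 8 weeks (15.3-fold). Calml4 was 13.4-fold higher, the D-amino acid oxidase Dao 13.1-fold, the acyl-CoA synthetase Acsm5, named from the gene table, 12.1-fold, the membrane carbonic anhydrase Car14 10.6-fold, the mitochondrial carrier Slc25a18 10.3-fold and the retinal dehydrogenase Aldh1a1 9.44-fold. Of the largest differences downward, Msln (mesothelin) had 51.9 at 1 week and 3.34 at 8 weeks (15.7-fold lower). Identifiers without a symbol were as far apart, with RGD:631402 at 1.17 and 20.3, RGD:1311996 at 6.6 and 94.9, RGD:621222 at 33.7 and 2.07 and RGD:628801 at 89.9 and 6.8 at 1 and 8 weeks.

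**Figure D3:**
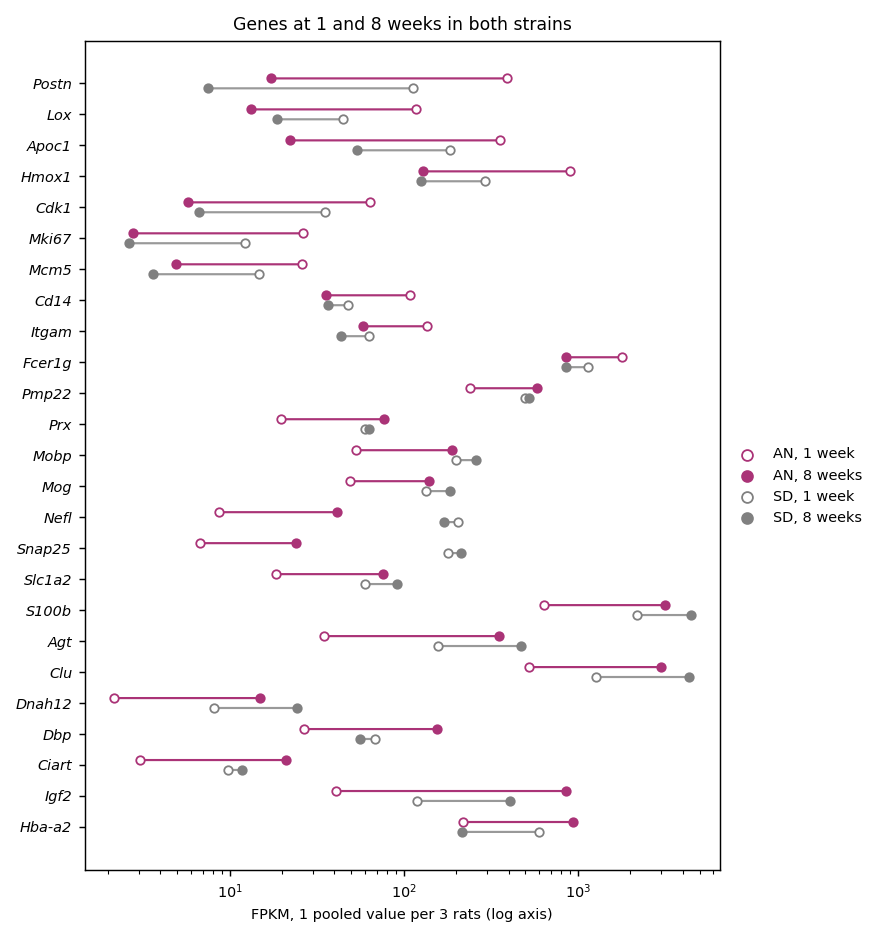
Pooled FPKM (log axis) of 25 genes at 1 week (open) and 8 weeks (filled) in AN rats (purple) and SD rats (grey), 1 value per 3 rats. The purple line is the longer one for most genes, and for Hba-a2 the lines run in opposite directions, from 219.6 to 934 in AN and from 595 to 215 in SD rats.

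The pooled AN values differed more between the times than the SD values did. Over the 10379 genes compared in both strains the median absolute centred log2 ratio was 0.35 in AN and 0.21 in SD rats. At least 2-fold higher at 8 weeks were 983 genes in AN and 214 (2.06%) in SD rats, and at least 2-fold lower 541 and 287 (2.77%). The 190 genes higher in both strains were 19.3% of those in AN and 88.8% of those in SD rats. The 207 lower in both were 38.3% and 72.1%. Across genes, which are not independent replicates, the AN and the SD ratios had a Pearson r of 0.8. They come from separate rats but share the tables, and with them the scaling of each phase.

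Most genes that passed the limit in AN rats had an SD ratio of the same sign and smaller size. Of the 983 genes at least 2-fold higher in AN rats, 929 had an SD ratio of the same sign and 964 one of smaller size, with a median of 1.4 in AN and 0.63 in SD rats. Of the 541 that were lower, 532 had the same sign and 500 a smaller size, with medians of -1.36 and -0.86. Since these genes were picked on the AN ratio, the larger AN median follows in part from the choice. The AN ratio exceeded the SD ratio by at least 2-fold in 423 genes and was below it by as much in 113, and this difference does not depend on the scaling between the phases. By list, the median cell cycle ratio was -2.74 in AN and -1.88 in SD rats, and that of astrocyte genes 1.75 and 0.54. That of scar matrix was -1.5 and -1.05, and that of Schwann cell genes 1.66 and -0.13. Protease genes had the larger median in SD rats, with -0.69 in AN and -1.4 in SD rats. Most list symbols came from genes chosen for a strain difference at 1 week, so such gaps are in part built in. At 1 week the median log2 ratio of AN over SD was 0.88 for cell cycle, -1.29 for astrocyte and -0.98 for Schwann cell genes. Besides genes with a time course far below that of SD rats already given (Apoc1, Calcb, Hp, Msln, Gad1), Mrap, an accessory protein of the ACTH receptor named from the gene table, stood far above it, with 1.34 and 7.68 in AN and 4.11 and 3.81 in SD rats at 1 and 8 weeks.

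**Figure D4:**
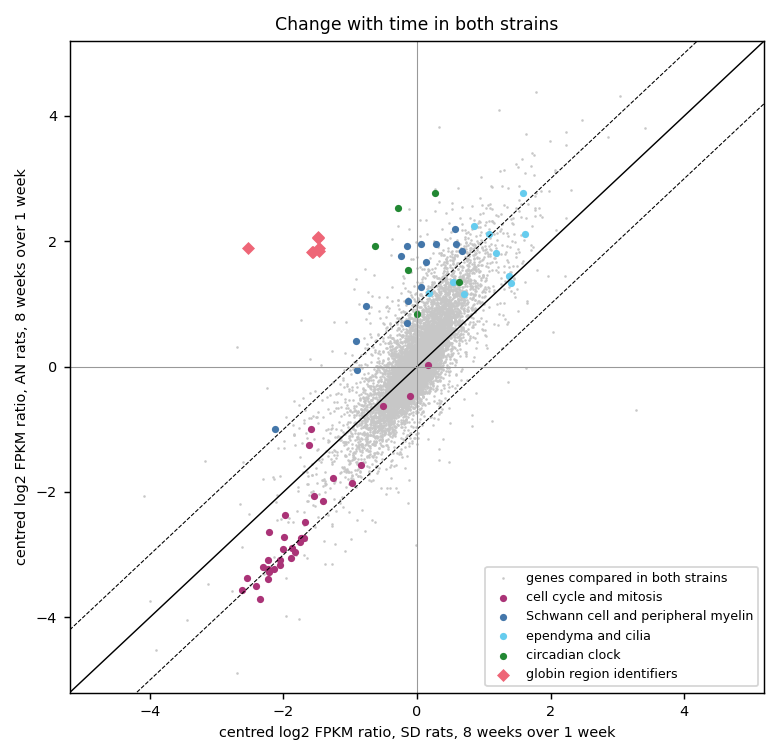
Centred log2 ratio of the FPKM at 8 weeks over 1 week in SD rats (horizontal) and AN rats (vertical) for genes compared in both strains, with the solid line at equal ratios and dashed lines where they differ by 2-fold. Most cell cycle genes lie near or below the solid line at the lower left, Schwann cell and clock genes lie above it, and the 7 globin region identifiers (diamonds) lie alone at the upper left.

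Hemoglobin genes were the single group past 2-fold in opposite directions. All 7 identifiers that were at least 2-fold higher in one strain and lower in the other lie at the alpha globin genes on RN4 chromosome 10 or the beta globin genes on chromosome 1, and all were higher at 8 weeks in AN and lower in SD rats. Hba-a2, an alpha globin chain (RN4 chromosome 10, 15584359 to 15585215), had 219.6 at 1 week and 934 at 8 weeks in AN (4.21-fold higher) and 595 and 215 in SD rats. Hbb, carried by a pair of identifiers on RN4 chromosome 1, had 19.6 and 71.0 on one of them and 9.07 and 34.0 on the other in AN rats. Within each cluster these genes are near-identical copies among which the counting could split reads, so the 7 are not independent of each other. Ahsp, a red cell chaperone under the FPKM minimum at 1 week, had 0.244 and 1.43 in AN and 2.43 and 1.43 in SD rats. Blood left after perfusion is not recorded per rat, and its part in these values was not tested.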

How the data were processed

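Polyadenylated RNA of 12 spinal cord segments was sequenced. Per the submitters' processing notes and methods, the authors used FastQC, cutadapt, TopHat 1.5.0 on RN4, Cufflinks 0.0.6 and Cuffdiff, with quartile normalization for each phase. The FPKM values the authors deposited are 1 per group of 3 rats. Their 5 comparison columns (fold change, test statistic, p-value, q-value and call) were not used, and status served as a filter. Reads per gene, and so the precision of a value, are unknown from the tables. Here the AN FPKM at 8 weeks was divided by that at 1 week, log2 transformed without a pseudocount and centred (Python 3.11.15, pandas 2.3.3, numpy 2.4.6). The code was tested on simulated data. Members and gene lists were chosen with earlier results of these data known. Named genes are the 10 largest differences in each direction with a symbol and an FPKM of at least 10 at either time, per list the 4 largest past 2-fold and the 2 most abundant, the 5 furthest from SD rats in each direction, and cell type markers, with others marked in the text or given as contrasts within a list. Symbols came from the study's list, held in part, and from RefSeq (GRCr8), and 24 symbols carried by more than 1 identifier were left out of lists. Promoters are RefSeq's first window per gene. Alternatives were other FPKM minimums, a pseudocount, no status filter and other scalings. A few genes that the naming rule picks are not reported here.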

Additional observations from a re-analysis of the deposited data

Results flagged for a closer look

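In 16 identifiers named above or in the globin clusters, and in 2 gene lists, the pooled AN value moved one way past 2-fold and the pooled SD value the other way, with at least a 2-fold difference between them. None of these differences was tested, since each group has 1 value. The AN minus SD difference of log2 ratios was 3.56 for Hba-a2, 3.54 for LOC360504, 3.39 for LOC100134871, 3.32 and 3.37 for the identifiers of Hbb, and 3.40 and 4.43 for those without a symbol in the beta and alpha globin clusters. The last rests on low values, 4.29 and 16.0 in AN and 10.2 and 1.77 in SD rats at 1 and 8 weeks. It was 2.83 for Dbp, 2.56 for Per3, 1.67 for Tef and 2.09 for the median of the clock list. It was 1.38 for the median of the Schwann cell list. Symbols of both lists came mostly from genes chosen for a strain difference at 1 week. For the neurofilament chains the difference of log2 ratios was 2.52 (Nefl) and 2.42 (Nefm) and for Mrap 2.63. For Myl11, a muscle light chain near the FPKM minimum, it was 1.93. It was negative for Gad1 (-1.99) and Olr1 (-1.23), which were lower at 8 weeks in AN and slightly higher in SD rats.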

How the results depend on the processing

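Each group has 1 pooled value, so no rat could be left out. No paired analysis was possible because the tables hold no value per rat. With an FPKM minimum of 5 in place of 1, 545 genes were at least 2-fold higher and 321 lower in AN rats at 8 weeks. The AN ratio was above the SD ratio by 2-fold in 188 genes and below it in 48. Fewer genes were compared, and those left out included all 1683 with a mean FPKM from 1 to 5. Of these, 18.7% were higher and 7.72% lower with the minimum of 1, so those counts lean in part on low genes. A pseudocount of 1 shrinks the ratios of low genes. With it, the AN ratio was above the SD ratio by 2-fold in 261 genes and below it in 74. Under the other FPKM minimum, without the status filter and under 4 other scalings the counts stayed within 1.5 times. They ran from 989 to 1200 genes higher and from 506 to 673 lower. Of 166 named genes, 12 crossed 2-fold under at least 1 of these alternatives, and none changed sign past it. Of 34 list medians, 8 crossed 2-fold, all but those of T and B cell genes by small steps, and that of macrophage genes, at the limit itself, under each alternative scaling. With names from the gene table only, an alternative chosen after seeing the data, few genes were left per list. The cell death list reversed to 2.22 (1 gene), cytokine (-1.45, 2 genes) and protease genes (-3.47, 1 gene) passed 2-fold, and macrophage (-0.50, 3 genes), lipid (-0.48, 1 gene) and vessel genes (0.78, 1 gene) were within it. What limits all values is the pooling: spread between rats, depth per gene and any effect of the separate normalization cannot be read from the tables, and 67.7% of the compared genes have no symbol.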
